A study of Homo sapiens with 24 samples.

Results

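NPR3 encodes the natriuretic peptide clearance receptor. It is described here with the other natriuretic peptide genes on an expression array, which are the receptor genes NPR1 and NPR2 and the ligand genes NPPB and NPPC. The 5 genes were listed by name, and each was represented by the probe set that names only that gene and has the highest mean signal over all arrays. A probe set was matched for 4 of the 5 genes, among 22395 genes measured, and NPR2 was not analysed here. NPR3 was chosen by its measured signals. Earlier results of these same arrays had shown it higher in Aldefluor+ cells of both cell lines, under different treatments. Its values are therefore given as a description with no test.

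The study used 2 established human breast cancer cell lines. SUM159 comes from a triple-negative tumour and has a mesenchymal character, whereas T47D cells are luminal and carry the oestrogen receptor. Each line was kept for 72 h with 5 µM ID8, a small molecule, or with its solvent DMSO, and was then stained with Aldefluor, a fluorescent substrate of aldehyde dehydrogenases. Cells were sorted as Aldefluor+ or Aldefluor- against a tube with the aldehyde dehydrogenase inhibitor DEAB. Line, treatment and fraction gave 8 groups with 3 arrays each. Experiments 2, 3 and 4 supplied SUM159 and experiments 5, 6 and 7 supplied T47D, and an experiment gave 1 array to each of the 4 groups of its line. Each line stands for 1 tumour, and nothing in the labels says that the experiments of a line were more than separate cultures of it.

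Natriuretic peptides are small ring-shaped hormones, of which ANP (NPPA) and BNP (NPPB) come mainly from the heart and CNP (NPPC) acts mainly close to where it is made, for example in vessel walls and growing bone. NPR1 and NPR2 are receptors with a guanylyl cyclase domain in the cell, and ligand binding makes them produce cyclic GMP, which acts through cGMP-dependent kinases until phosphodiesterases break it down. NPR3 binds all 3 peptides but has no cyclase domain. It takes bound peptide into the cell for degradation, and its short tail has been reported to couple to inhibitory G proteins.

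The values are log2 signals that the submitters had adjusted for experiment, so each difference is on the log2 scale and may be compressed by that step. The labels could be checked against known markers: 7 of 7 SUM159 markers and 7 of 7 T47D markers had a higher mean in their own line. The gaps differed in size. MSN was 5.76 in SUM159 and 4.78 in T47D, and CDH1 was 4.90 and 5.60, with no overlap of arrays. ESR1, at 2.44 in SUM159 and 2.80 in T47D, and KRT8, at 3.07 and 3.16, had overlapping arrays. Median signals of the 24 arrays lay between 2.05 and 2.12. The SUM159 Aldefluor+ DMSO array of experiment 4 had the narrowest spread, with an interquartile range of 2.88 against 2.97 to 3.12 on the 23 others. The NPR3 differences and the pathway calls that use this array are given without it too. Calls of ALDH1A1 and ACTA2 are given only with it.

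In SUM159, NPR3 was low in 1 group only. The Aldefluor- cells with DMSO had NPR3 signals of 4.19, 3.88 and 4.05 (mean 4.04 ± 0.16, SD, n = 3). The Aldefluor+ cells with DMSO had 5.74, 5.91 and 5.13 (5.59 ± 0.41). With ID8, the Aldefluor+ cells had 5.49, 5.60 and 5.85 (5.64 ± 0.18) and the Aldefluor- cells had 5.03, 5.44 and 5.77 (5.41 ± 0.37). All 3 arrays of the Aldefluor- DMSO group lay below the 9 other SUM159 arrays, and the ranges of the 3 higher groups overlapped one another.

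In T47D, NPR3 was ordered in 4 separate steps. The Aldefluor- cells with DMSO had signals of 4.34, 3.84 and 3.71 (3.96 ± 0.34), and those with ID8 had 4.39, 4.57 and 4.49 (4.48 ± 0.087). The Aldefluor+ cells with DMSO had 4.85, 4.94 and 5.31 (5.03 ± 0.24). The Aldefluor+ cells with ID8 had 6.41, 6.50 and 6.33 (6.41 ± 0.085), above every other array of that line. No ranges of these 4 groups overlapped, although the lowest Aldefluor- ID8 array stood only 0.050 above the highest Aldefluor- DMSO array.

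**Figure D1:**
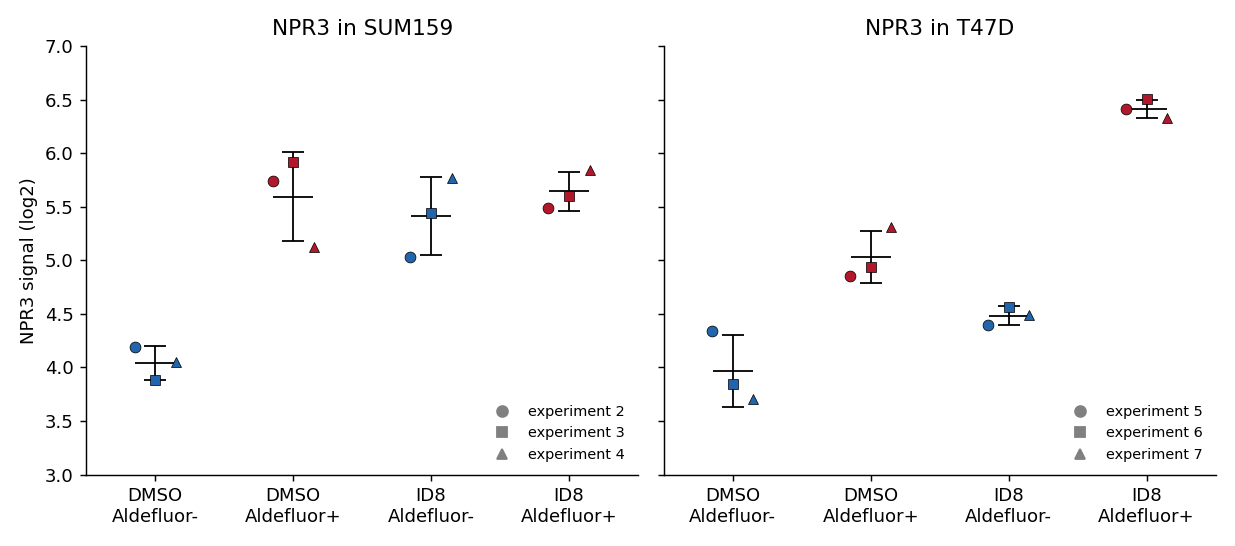
NPR3 signal (log2, vertical axis) on each array for the 4 groups of SUM159 (left) and of T47D (right). Points are arrays, with the marker showing the experiment and red or blue showing Aldefluor+ or Aldefluor- cells, and bars give the group mean and SD of 3 arrays. In SUM159 only the Aldefluor- DMSO group, at 4.04 ± 0.16, stands apart, and in T47D the Aldefluor+ ID8 group is highest at 6.41 ± 0.085.

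Without ID8 the fraction difference of NPR3 had the same direction in both lines. In SUM159 with DMSO, Aldefluor+ cells were above Aldefluor- cells by 1.55 ± 0.228 (SE), or 2.93-fold, with differences of 1.55, 2.03 and 1.07 in experiments 2, 3 and 4. That was the 3rd highest difference among the 22395 genes. In T47D with DMSO the difference was 1.07 ± 0.228, or 2.10-fold, with 0.51, 1.10 and 1.60 in experiments 5, 6 and 7, and it ranked 31st. These ranks come from the contrasts that led to the choice of NPR3 and support nothing further. Genes called in these comparisons (limma, adjusted p under 0.05) made up 0.0223% of all genes in SUM159 and 0.152% in T47D.

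With ID8 the fraction difference of NPR3 was smaller in SUM159 and larger in T47D. In SUM159 it was 0.23 ± 0.228, or 1.17-fold, with 0.45, 0.16 and 0.078 in the 3 experiments. In T47D it was 1.93 ± 0.228, or 3.81-fold, with 2.02, 1.93 and 1.84. The fraction difference with ID8 minus that with DMSO was -1.32 ± 0.322 in SUM159 and lay below 0 in 3 of 3 experiments, at -1.10, -1.87 and -0.99. Without the array of narrow spread it was -1.65. In T47D it was 0.86 ± 0.322 and lay above 0 in 3 of 3 experiments, at 1.51, 0.83 and 0.24. The lines thus moved in opposite directions in every experiment. This contrast was not tested because NPR3 was chosen for its fraction difference in both lines under different treatments. The 3 of 3 counts draw on those same values and support nothing further.

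The same values can be read by treatment within a fraction, where the DMSO arrays are shared with the comparisons above. In SUM159, ID8 went with higher NPR3 in Aldefluor- cells, by 1.37 ± 0.228 or 2.59-fold, with 0.84, 1.56 and 1.71 in the 3 experiments. In SUM159 Aldefluor+ cells the difference was 0.05 ± 0.228 and its sign varied, with -0.26, -0.31 and 0.72. Without the Aldefluor+ DMSO array of narrow spread, that difference was -0.28 and the SUM159 DMSO fraction difference was 1.88. In T47D the larger treatment difference lay in the other fraction. Aldefluor+ cells with ID8 exceeded those with DMSO by 1.38 ± 0.228 or 2.61-fold (1.56, 1.56 and 1.03), and Aldefluor- cells by 0.52 ± 0.228 or 1.43-fold (0.050, 0.73 and 0.78).

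ALDH1A1, an aldehyde dehydrogenase gene, was read as a check of the sort. Like NPR3 it was higher in Aldefluor+ than in Aldefluor- SUM159 cells with DMSO, and the patterns of both genes parted with ID8. In SUM159 with DMSO, ALDH1A1 was 5.03, 5.17 and 4.84 in Aldefluor+ cells and 2.45, 1.98 and 2.19 in Aldefluor- cells. With ID8 it was 4.96, 5.30 and 5.41 in Aldefluor+ cells and 2.21, 2.36 and 2.02 in Aldefluor- cells. The SUM159 Aldefluor- cells given ID8 therefore combined ALDH1A1 at the level of the Aldefluor- controls with NPR3 above all Aldefluor- controls. On 2 of the 3 arrays NPR3 lay within the range of the Aldefluor+ groups, and the third, at 5.03, lay just below their lowest array at 5.13. In T47D the ALDH1A1 group means ran from 3.07 to 3.28. Its fraction differences there were not called (limma adjusted p = 0.802 with DMSO and 0.984 with ID8). NPR3 was chosen for its fraction difference, so the 2 genes are not compared as markers of the sort. ALDH1A3, a related gene, was 2.65, 2.61 and 2.91 in T47D Aldefluor+ cells and 1.93, 1.79 and 2.11 in Aldefluor- cells with ID8. Its highest T47D group was thus the same as that of NPR3, although the difference of 0.78 ± 0.203 did not pass the test (limma adjusted p = 0.159, 3 of 3 experiments higher). With DMSO the fraction difference of ALDH1A3 in T47D was 0.071 (limma adjusted p = 0.966, 1 of 3 experiments higher). In SUM159 it was -0.0080 with DMSO and 0.17 with ID8 (limma adjusted p = 0.997 and 0.921).

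The arrays measured bulk RNA, in which a change in the share of NPR3-positive cells and a change of NPR3 RNA per cell cannot be told apart. Total RNA per sorted cell also moved with the fraction. In SUM159 with DMSO it was 12.7 to 13.0 pg in Aldefluor+ cells and 9.08 to 11.6 pg in Aldefluor- cells, and in T47D with DMSO it was 18.3 to 20.4 pg and 10.9 to 17.0 pg. With ID8 the ranges overlapped, at 12.2 to 15.6 pg and 10.2 to 14.1 pg in SUM159 and at 12.3 to 20.8 pg and 8.19 to 13.7 pg in T47D. Within each experiment RNA per cell was higher in Aldefluor+ cells, in 3 of 3 experiments for both lines with DMSO and with ID8. The part of RNA per cell in the NPR3 differences was not tested.

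NPR3 is known from vessel and smooth muscle cells, so markers of such cells were read beside it. Of 7 endothelial markers 6 were measured, 5 of them with a mean signal below 2 in every group, and 0 were called in any of the 8 comparisons. Their summed linear signal was 19.2 to 25.2 in SUM159 Aldefluor+ DMSO cells and 16.3 to 17.4 in the Aldefluor- DMSO cells, with a median difference of 0.33. ERG, the 1 marker above 2, ranged from 2.70 to 3.95 over the SUM159 arrays and weighs most in these sums. In T47D with ID8, where the fraction difference of NPR3 was 1.93, the endothelial sums overlapped at 17.1 to 18.4 and 16.8 to 18.6. Among 6 smooth muscle markers only ACTA2, smooth muscle actin, was called in the 8 comparisons. With ID8 it rose by 1.40 ± 0.219 in SUM159 Aldefluor- cells (limma adjusted p = 0.0083). In T47D Aldefluor+ cells it rose by 1.11 ± 0.219 (limma adjusted p = 0.0388). These groups had the larger treatment differences of NPR3. ACTA2 was higher with ID8 in the other groups too, in 3 of 3 experiments each, but was not called there. It differed by 0.69 in SUM159 Aldefluor+ cells (limma adjusted p = 0.246), where NPR3 differed by 0.05. In T47D Aldefluor- cells it differed by 0.83 (limma adjusted p = 0.449). Averaged over both fractions, ACTA2 was 1.04 higher in SUM159 (limma adjusted p = 0.0029) and 0.97 higher in T47D (limma adjusted p = 0.00899). With ID8 minus DMSO, MYH11, DES, CNN1, SMTN and LMOD1 differed by -0.25, -0.12, -0.042, -0.22 and -0.073 in SUM159 Aldefluor- cells. In T47D Aldefluor+ cells they differed by 0.0086, -0.19, 0.47, 0.15 and 0.32. The median difference of all 6 markers was -0.098 and 0.24 in these comparisons. Summed smooth muscle signal, which includes ACTA2, was 28.1 to 28.5 with ID8 and 23.1 to 26.7 with DMSO in SUM159 Aldefluor- cells. In T47D Aldefluor+ cells it was 31.7 to 33.9 and 24.3 to 26.7. The part of these markers in the NPR3 values was not tested. Of the leukocyte and adipocyte markers measured, 4 and 4, 0 were called in the 8 comparisons. Among all genes 0.0179% to 0.375% were called in these comparisons, so 0 calls in lists this short say little about these cell types.

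The other receptor and the ligand genes gave low signals in all 8 groups. NPR1 had a mean of 1.41 over the 24 arrays, NPPB 1.29 and NPPC 1.87. As a reference for silent genes, 358 olfactory receptor genes had a median signal of 0.94 with a 5th to 95th percentile range of 0.66 to 1.81. NPR1 and NPPB lay within that range on average and NPPC just above it. NPR3, with a mean of 5.07, lay above all of them. Probe sets differ in how well they bind, so these levels say which signals were near background and not which gene was expressed more.

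NPR1, the cyclase receptor for ANP and BNP, showed its largest treatment difference in SUM159 Aldefluor- cells. Its signals there were 1.43, 1.02 and 1.01 with DMSO and 1.45, 1.81 and 1.54 with ID8. The difference was 0.45 ± 0.215, with a 95% interval from -0.0086 to 0.90, and it did not pass the test (limma adjusted p = 0.629). In SUM159 Aldefluor+ cells NPR1 was 1.56, 1.27 and 1.38 with DMSO and 1.25, 1.51 and 1.76 with ID8, so those groups overlapped. In T47D the NPR1 group means lay between 1.34 and 1.52, and the highest single array was an Aldefluor+ DMSO array at 1.96.

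NPPB, the gene of BNP, had group means from 1.17 in T47D Aldefluor+ DMSO cells to 1.48 in T47D Aldefluor- DMSO cells. That pair gave its largest difference, -0.31, from signals of 1.42, 1.10 and 0.99 against 1.32, 1.78 and 1.35. The 2 groups overlapped, and the difference did not pass the test (limma adjusted p = 0.684, the lowest of NPPB in the 8 comparisons). NPPC, the gene of CNP, had group means from 1.72 in T47D Aldefluor- ID8 cells to 1.97 in T47D Aldefluor- DMSO cells. Its differences lay between -0.26 and 0.21 in the 8 comparisons.

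Across these 3 genes and the 8 comparisons, limma called 0 of 24 tests, and 0 had an unadjusted p under 0.05, a threshold that 6.60% to 10.8% of all genes passed in these comparisons. The share of all genes called was 0.0223% and 0.201% for the SUM159 fractions with DMSO and ID8, 0.152% and 0.366% for the T47D fractions, 0.241% and 0.277% for ID8 in SUM159 Aldefluor+ and Aldefluor- cells, and 0.375% and 0.0179% for ID8 in T47D. Averaged over treatments or fractions, 0 of 12 tests were called (backgrounds 0.219%, 0.688%, 0.875% and 0.505%). For differences between effects the count was 0 of 18 (backgrounds 0.00447%, 0%, 0.067%, 0.237%, 0.33% and 0.067%). limma with a trended, robust prior called 0 of all 54 tests. The 95% intervals of the 24 differences extended 0.385 to 0.455 on each side before any adjustment for the number of genes, so a call needed a difference larger than that.

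**Figure D2:**
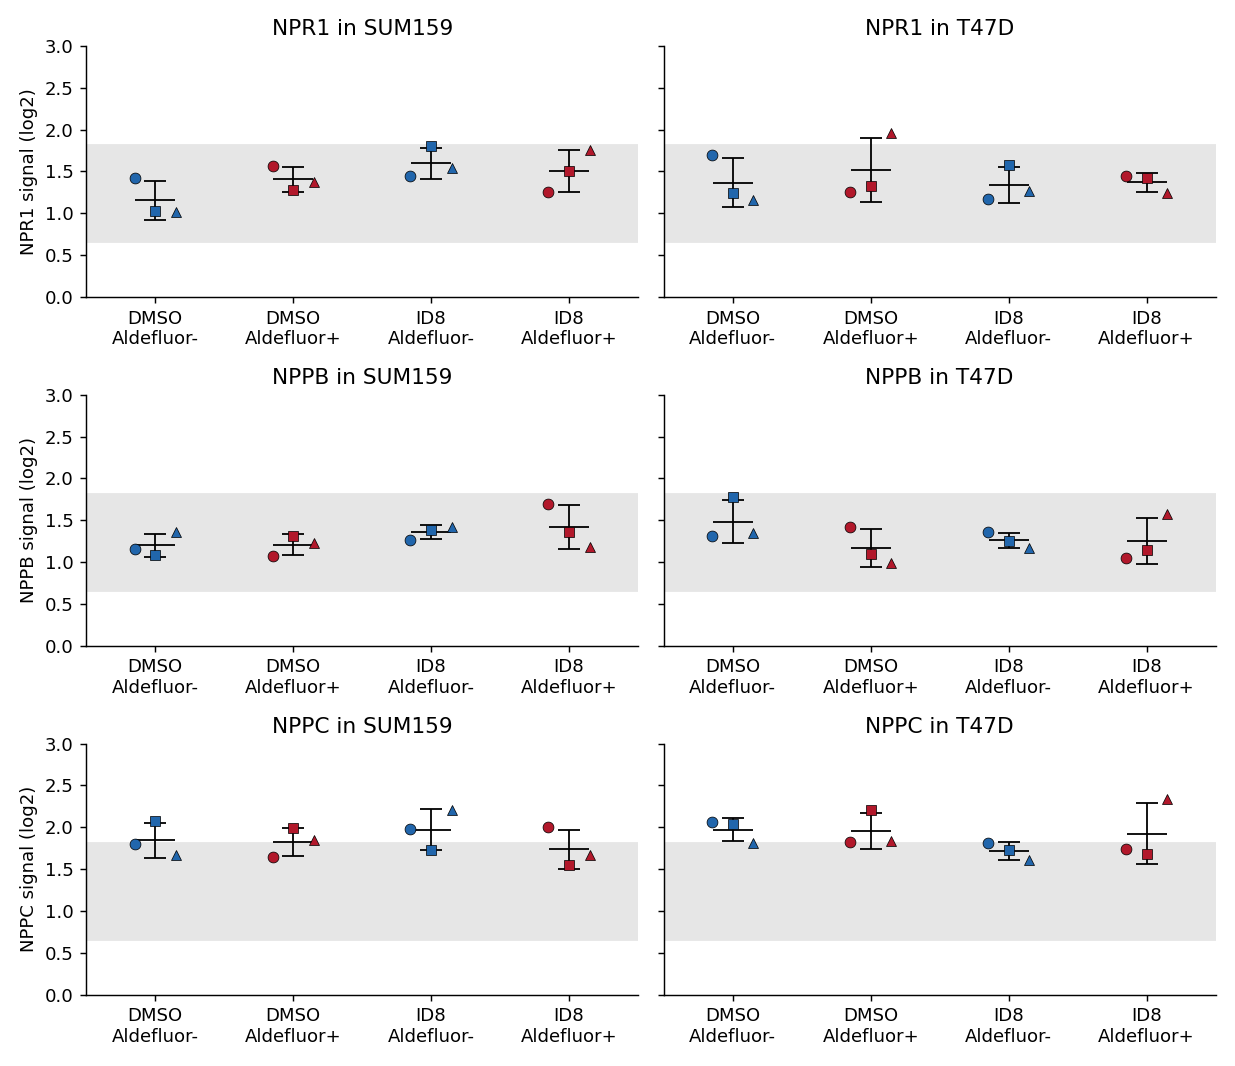
Signals (log2, vertical axes) of NPR1, NPPB and NPPC on each array in the 4 groups of SUM159 (left) and T47D (right), with group mean and SD of 3 arrays and red for Aldefluor+ and blue for Aldefluor- cells. Circles, squares and triangles are experiments 2, 3 and 4 in SUM159 and 5, 6 and 7 in T47D. The grey band is the 5th to 95th percentile of 358 olfactory receptor genes, 0.66 to 1.81, which holds the group means of NPR1 and NPPB, while those of NPPC reach 1.97.

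The rest of the pathway was read from a list of 49 genes, of which 47 had a probe set and 29 had a mean signal below 2. In 7 of the 8 comparisons 0 of the 47 genes were called by limma or by limma with a trended prior, with 5 and 4 genes at an unadjusted p under 0.05 for the SUM159 fractions with DMSO and ID8, 5 and 7 for the T47D fractions, 6 for ID8 in SUM159 Aldefluor+ cells, and 6 and 4 for ID8 in T47D Aldefluor+ and Aldefluor- cells. Those counts stand beside 7.95%, 7.52%, 8.96%, 8.93%, 10.3%, 10.8% and 6.60% of all genes at that threshold, in the same order. In SUM159 Aldefluor- cells given ID8, 1 of 47 genes rose and 1 fell, beside 0.188% and 0.0893% of all genes. The median difference of the list ran from -0.11 in the T47D DMSO fractions to 0.01 in the SUM159 ID8 fractions, while that of all genes stayed within 0.011 of 0.

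**Figure D3:**
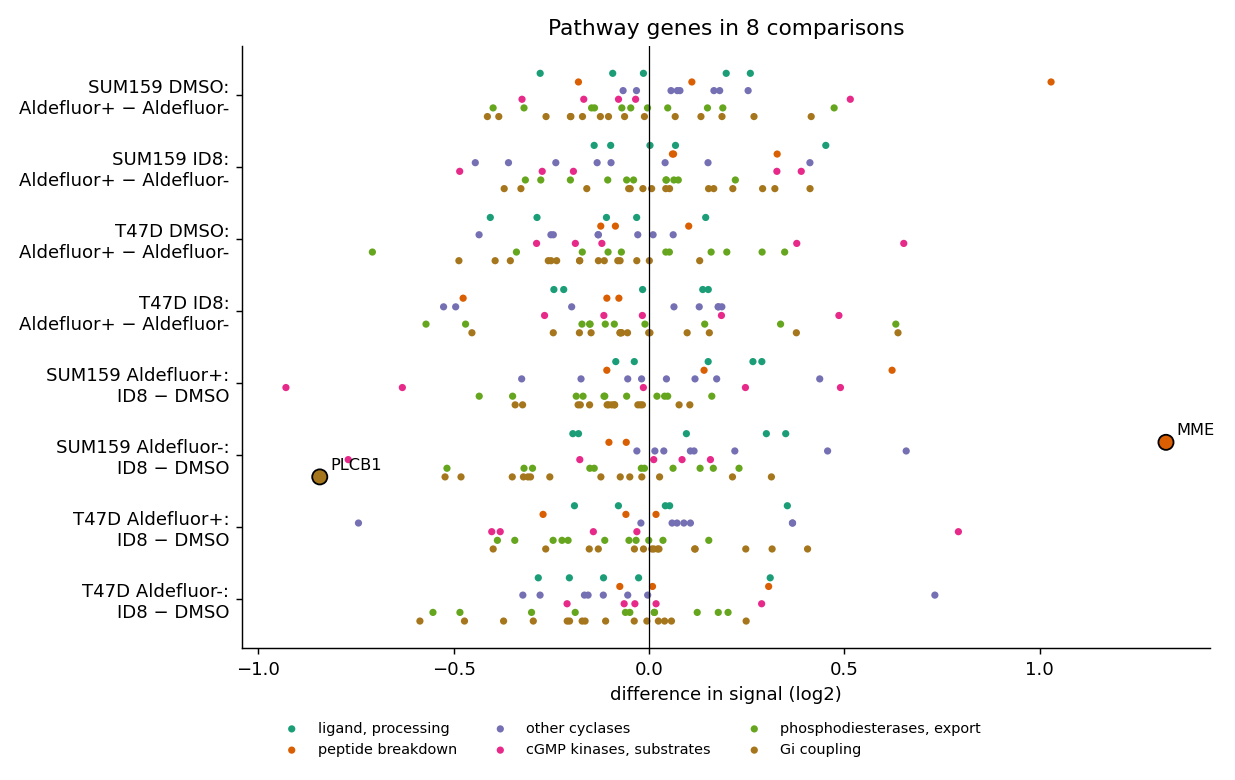
Differences in signal (log2, horizontal axis) of the 47 measured pathway genes in the 8 comparisons, 1 point per gene, coloured by role. The 2 large outlined points are the genes called by limma, MME at 1.32 and PLCB1 at -0.84, both for ID8 in SUM159 Aldefluor- cells.

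Of the 5 ligand and processing genes, 4 had means below 2, and 0 were called. NPPA, the ANP gene, had a mean of 1.45. FURIN, a protease that cleaves peptide precursors, had group means between 2.79 and 3.15, and PCSK6, a related protease that activates corin, between 1.62 and 2.16. The largest PCSK6 difference was 0.45 for the SUM159 fractions with ID8 (limma adjusted p = 0.487).

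Among 3 peptide-degrading enzymes MME rose. MME is neprilysin, the cell surface protease that cleaves natriuretic peptides outside the cell and so shares with NPR3 the role of removing them. In SUM159 Aldefluor- cells its signal was 4.15, 3.82 and 3.96 with DMSO and 5.55, 5.24 and 5.10 with ID8. The groups did not overlap, and the difference was 1.32 ± 0.238, or 2.50-fold (limma adjusted p = 0.0263, 3 of 3 experiments higher). Aldefluor+ cells of SUM159 had MME at 4.81, 5.10 and 5.09 with DMSO and at 5.56, 5.56 and 5.75 with ID8.

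The lowest SUM159 group for MME was thus the Aldefluor- DMSO group, as for NPR3. The fraction difference of MME with DMSO, 1.03 ± 0.238, and its ID8 difference in Aldefluor+ cells, 0.62 ± 0.238, did not pass the test (limma adjusted p = 0.223 and 0.36). Averaged over both fractions, MME was 0.97 higher with ID8 in SUM159 (limma adjusted p = 0.00897). In T47D, MME group means lay between 4.08 and 4.56, 0 of its 4 comparisons were called, and with ID8 the Aldefluor+ cells were 0.48 below the Aldefluor- cells (limma adjusted p = 0.604). The difference between the lines in the ID8 effect on Aldefluor- cells, -1.02 ± 0.337, did not pass (limma adjusted p = 0.508). IDE, an intracellular protease that also degrades ANP, had group means from 7.64 to 7.87 and no call.

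Of 8 other cyclases and their peptides, 6 had means below 2 and 0 were called. GUCY1A2, a subunit of the nitric oxide receptor cyclase, was 3.39 ± 0.29 with DMSO and 4.05 ± 0.19 with ID8 in SUM159 Aldefluor- cells, a difference of 0.66 (limma adjusted p = 0.313). GUCA2A, the gene of the intestinal peptide guanylin, had group means between 2.71 and 3.15.

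Downstream of cyclic GMP, 0 of 5 kinase and substrate genes were called in the 8 comparisons. The kinase genes PRKG1 and PRKG2 had means of 1.40 and 1.48. VASP, an actin regulator phosphorylated by these kinases, had group means between 4.81 and 5.46. RGS2, which turns off Gq signalling and is activated by cGMP-dependent kinase, differed in its ID8 response between the lines. In Aldefluor+ cells of SUM159 it was 3.72, 3.60 and 3.13 with DMSO and 2.10, 2.73 and 2.83 with ID8. In those of T47D it was 2.96, 2.52 and 2.28 with DMSO and 3.05, 3.49 and 3.61 with ID8. Within each line these groups did not overlap. The ID8 differences were -0.93 and 0.79, neither called on its own (limma adjusted p = 0.128 and 0.185). Their difference, T47D minus SUM159, was 1.72 ± 0.325 and passed the test (limma adjusted p = 0.0346, beside 0.196% of all genes higher in that contrast). Averaged over both SUM159 fractions, RGS2 fell by 0.85 with ID8 (limma adjusted p = 0.0196).

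Of 11 measured phosphodiesterase and export genes, 9 had means below 2 and 0 were called in the 8 comparisons. ABCC4 and ABCC5, transporters that can export cyclic nucleotides, had group means of 2.92 to 3.83 and 2.55 to 3.51. Averaged over both treatments, ABCC5 was lower in T47D Aldefluor+ than Aldefluor- cells by 0.59 ± 0.133 (limma adjusted p = 0.048, beside 0.371% of all genes lower).

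Of 15 measured genes of inhibitory G protein subunits, phospholipases C and adenylyl cyclases, PLCB1 fell. Whether these genes act with NPR3 in these cells was not tested. PLCB1 is a phospholipase C activated by G proteins. In SUM159 Aldefluor- cells its signal was 4.49, 4.50 and 4.55 with DMSO and 3.56, 3.79 and 3.66 with ID8. The groups were far apart, and the difference was -0.84 ± 0.124 (limma adjusted p = 0.00527, lower in 3 of 3 experiments). SUM159 Aldefluor+ cells lay between them, at 4.19, 4.02 and 4.09 with DMSO and 4.14, 3.98 and 4.13 with ID8. Averaged over both SUM159 fractions the ID8 difference was -0.43 (limma adjusted p = 0.0304, beside 0.339% of all genes higher and 0.348% lower with ID8). In T47D, 0 of its 4 comparisons were called. GNAI3, an inhibitory G protein alpha subunit, had group means from 7.04 to 7.40, and PLCB3, a related phospholipase, from 5.08 to 5.34, with no calls.

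The calls of MME, PLCB1, RGS2 and ABCC5 did not all hold when arrays were left out. Leaving out any 1 of the 3 SUM159 experiments kept the MME difference in Aldefluor- cells at 1.28 to 1.41 but gave limma adjusted p = 0.236 to 0.335, and kept that of PLCB1 at -0.91 to -0.80 with limma adjusted p = 0.0696 to 0.185. The average ID8 effects in SUM159 were also not called, with adjusted p of 0.11 to 0.158 for MME, 0.0718 to 0.189 for RGS2 and 0.187 to 0.263 for PLCB1. The line difference of RGS2 was 1.38 to 2.08 with limma adjusted p = 0.024 to 0.178, not called without experiment 2, 3, 6 or 7. ABCC5 was not called without any 1 of the 3 T47D experiments (limma adjusted p = 0.0825 to 0.319). Without the single SUM159 array of narrow spread, the average ID8 effect on PLCB1 was -0.44 and not called (limma adjusted p = 0.0546), and ABCC5 was not called either (limma adjusted p = 0.0547). The calls of the average effects on MME, at 1.00, and RGS2, at -0.96, and of the RGS2 line difference, at 1.94, held without that array (limma adjusted p = 0.02, 0.0135 and 0.0165).

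**Figure D4:**
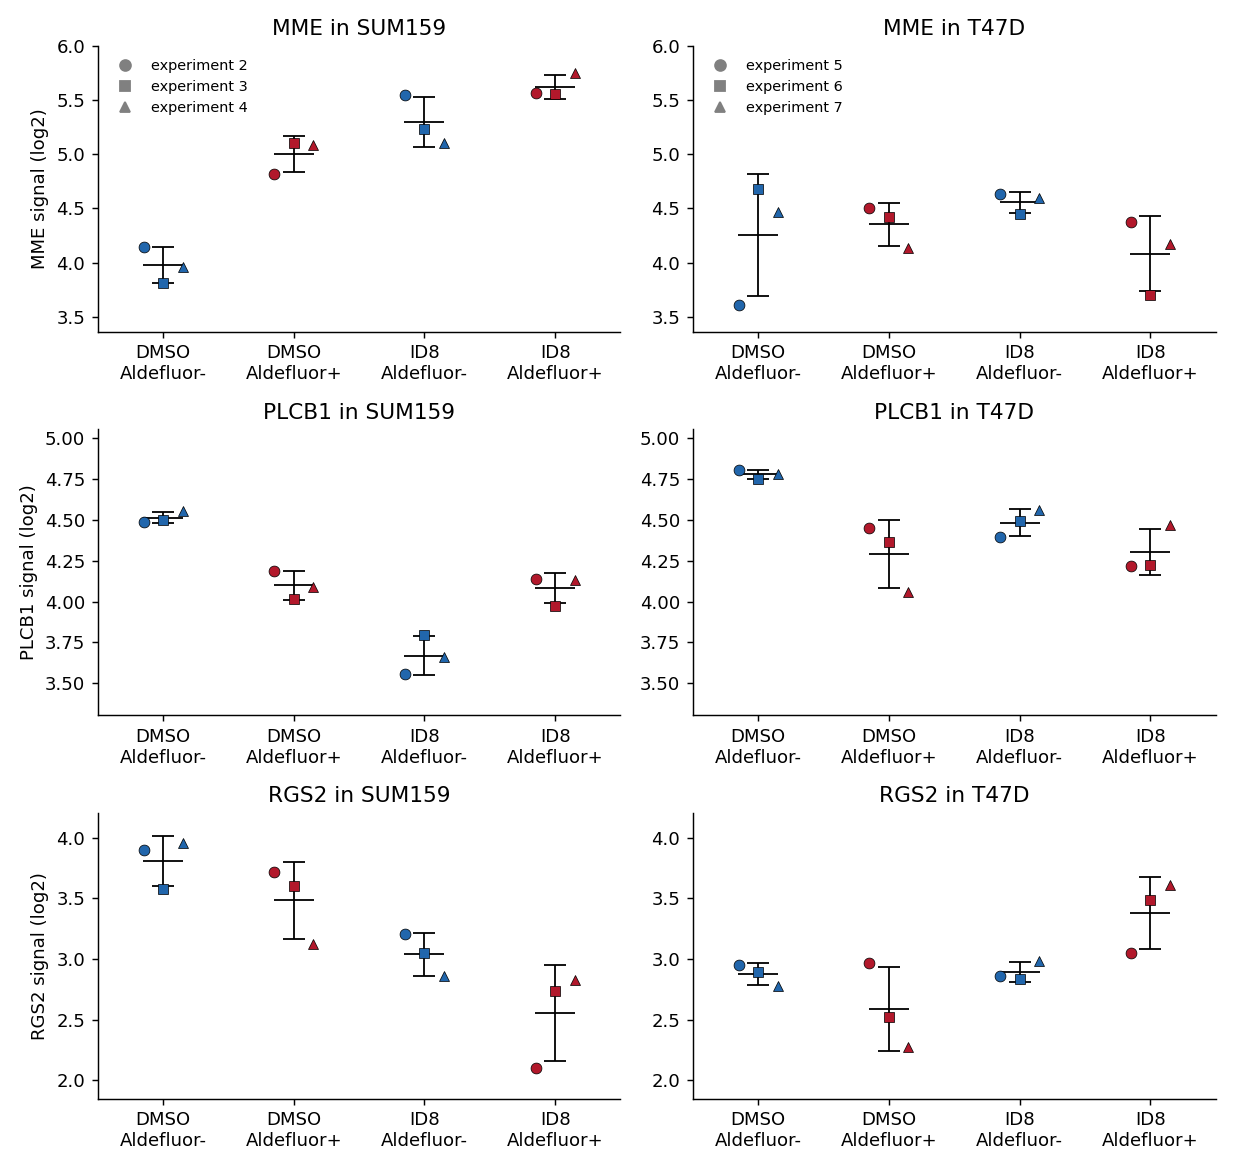
Signals (log2, vertical axes, which do not start at 0) of MME, PLCB1 and RGS2 on each array in the 4 groups of SUM159 (left) and T47D (right), with group mean and SD of 3 arrays and red for Aldefluor+ and blue for Aldefluor- cells. In SUM159 Aldefluor- cells, MME goes from 3.97 ± 0.17 with DMSO to 5.30 ± 0.23 with ID8 and PLCB1 from 4.51 ± 0.034 to 3.67 ± 0.12, and RGS2 in Aldefluor+ cells is lower with ID8 in SUM159 and higher with ID8 in T47D.

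The genes whose pattern was most like that of NPR3 were ranked by the correlation of their signals with NPR3 over the 24 arrays, after the mean of each line was subtracted, among 11417 genes with a mean of at least 2. The arrays share lines, treatments and experiments, so these values are a description. The highest was EPAS1, the hypoxia-inducible factor HIF-2 alpha, with r = 0.918 (0.951 within SUM159 and 0.899 within T47D). EPAS1 signals were 5.53, 5.38 and 5.45 in SUM159 Aldefluor- DMSO cells and 6.30, 6.09 and 5.95 in the Aldefluor+ DMSO cells. With ID8 they were 5.75, 6.09 and 6.03 in SUM159 Aldefluor- cells and 6.18, 6.09 and 6.35 in Aldefluor+ cells. As for NPR3, all 3 Aldefluor- DMSO arrays were the lowest of that line.

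In T47D, EPAS1 was 5.09, 5.22 and 5.27 in Aldefluor- DMSO cells and 6.40, 6.26 and 6.39 in Aldefluor+ ID8 cells, with the 2 other groups between 5.49 and 5.86. The next were FAS, a death receptor, with r = 0.879, CITED2, a transcriptional co-regulator, with 0.866, SERPINI1, the serpin neuroserpin, with 0.862, IFI27, an interferon-induced gene, with 0.861, and LPCAT1, a phospholipid acyltransferase, with 0.840. The most opposed were AMN1 with r = -0.882, SAFB, a nuclear matrix and RNA-binding protein, with -0.865, and TRIM8, a ubiquitin ligase, with -0.840. For comparison MME had r = 0.280, which combined 0.835 within SUM159 and -0.449 within T47D, and ALDH1A1 had 0.407, with 0.647 within SUM159 and 0.235 within T47D.

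**Figure D5:**
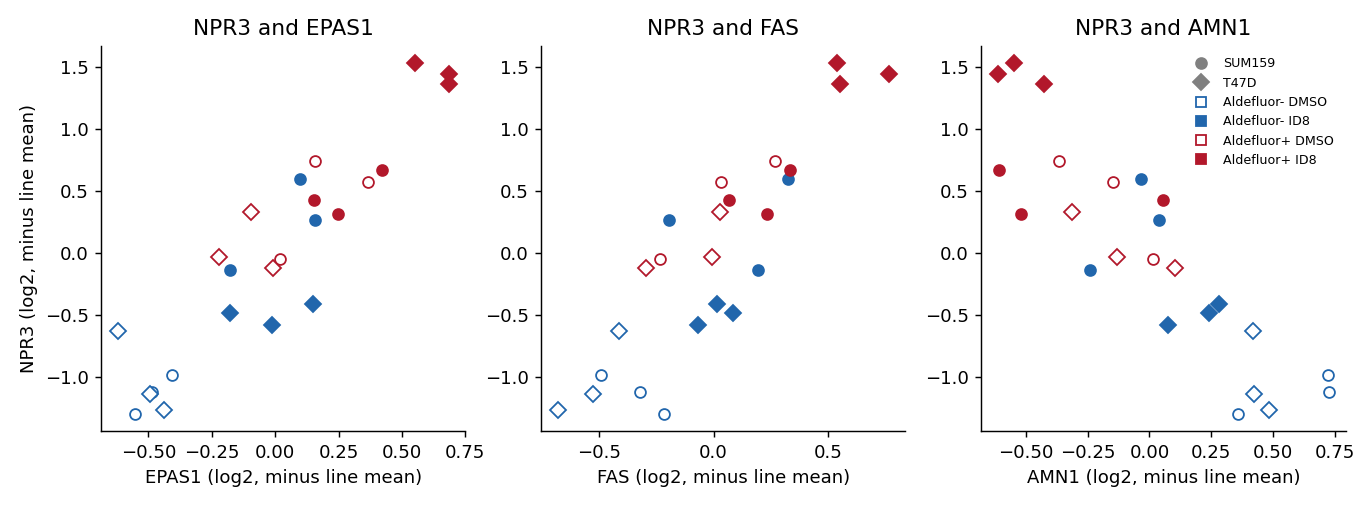
NPR3 signal (vertical axis) against EPAS1, FAS and AMN1 (horizontal axes), each as log2 signal minus the mean of its line, for 24 arrays, with circles for SUM159, diamonds for T47D, red for Aldefluor+, blue for Aldefluor-, filled for ID8 and open for DMSO. EPAS1 (r = 0.918) and FAS (r = 0.879) run with NPR3, and AMN1 (r = -0.882) runs against it.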

How the data were processed

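Expression was measured on Affymetrix gene arrays from amplified RNA of sorted cells, 24 arrays in all. The deposited values are log2 signals that the authors had normalized with RMA and adjusted with ComBat for experiment and processing batch, per the series' design text and the submitters' processing notes. ComBat's batches and software versions were not given in the sources used here, and the adjustment can compress differences, also between the lines. The number of arrays limits the precision. P-values rest on the spread of arrays that is left after group means and experiment are fitted, shared over both lines. That spread may be partly technical.

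Of 53617 probe sets, 23871 named 1 gene, 1842 several and 27904 none. Symbols were updated by gene number to RefSeq for 22569. The probe set with the highest mean was kept per gene, which left 22395 genes, of which 632 had more than 1 probe set. limma 3.58.1 in R 4.3.3 fitted 8 group means and experiment as a block within each line to all arrays (12 residual degrees of freedom), with empirical Bayes moderation, Benjamini-Hochberg adjustment over all genes of a contrast and calls at adjusted p under 0.05. All p-values are two-sided. The fit was tested on simulated data. Tables and figures were made with Python 3.11.15.

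The members, the pathway list and the marker lists were chosen with earlier results of these data known. Named were the listed genes, pathway genes called in at least 1 of the 8 comparisons, the 2 pathway genes per role with the highest mean, the 6 genes most like NPR3 and the 3 most opposed, and ALDH1A1 and ALDH1A3 as the check of the sort. ACTA2, PRKG1, PRKG2, NPPA and EDN1 were named after their values were seen. The olfactory receptor reference was added after seeing the data. Pairing comes from the experiment numbers in the labels. In the adjusted values, deviations from group means correlated at -0.408 to -0.266 over 36 pairs of the same experiment and at 0.0986 to 0.244 over 72 pairs of different experiments of a line.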

Additional observations from a re-analysis of the deposited data

Results flagged for a closer look

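The fraction difference of NPR3 with ID8 minus that with DMSO was -1.32 in SUM159 and 0.86 in T47D, below 0 in every SUM159 experiment and above 0 in every T47D experiment. This difference between the lines was not tested, since NPR3 was chosen for its pattern. The directions in the experiments come from the values behind that choice and support nothing further.

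ALDH1A1 had a smaller fraction difference in T47D than in SUM159, by -2.59 with DMSO (limma adjusted p = 0.000241) and by -3.05 with ID8 (limma adjusted p = 2.34e-05). The ID8 response of RGS2 in Aldefluor+ cells differed between the lines by 1.72, T47D minus SUM159 (limma adjusted p = 0.0346).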

How the results depend on the processing

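NPR3 differences in the 8 comparisons were recomputed without the replicate block, without each experiment, without the SUM159 array of narrow spread, after median centring or quantile normalization, with the mean of all probe sets and with a filter on low signals. Several of these settings return the same NPR3 difference by construction, so agreement among them says little. The sign changed in 2 of 72 values, both of the SUM159 Aldefluor+ ID8 difference, at -0.28 in place of 0.05. With 1 experiment left out, NPR3 fraction differences were 1.31 to 1.79 and 0.12 to 0.31 in SUM159 with DMSO and ID8, and 0.80 to 1.35 and 1.89 to 1.98 in T47D. Counts of called members stayed at 0 for NPR1, NPPB and NPPC under every alternative that could be run. None of them passed the filter on low signals, which therefore gave no value.

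Without the replicate block for experiment, the pathway counts were 1 for the SUM159 DMSO fractions, 2 for the T47D DMSO fractions, 1 for the T47D ID8 fractions, 2 for ID8 in SUM159 Aldefluor+ cells and 3 for ID8 in T47D Aldefluor+ cells, against 0 with the block. The share of all genes called without the block is not given here, so those counts cannot be told from a rise over all genes. The pathway count for ID8 in SUM159 Aldefluor- cells, 2, was 0 with any 1 SUM159 experiment left out, in fits that use fewer arrays. All-gene medians moved by at most 0.022 under the scalings. Signals near background limit what can be said of NPR1, NPPB and NPPC.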

Other observations

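EDN1, the gene of endothelin 1, a peptide that narrows blood vessels and so opposes natriuretic peptides, ranked 15th of 11417 genes by likeness to NPR3, with r = 0.804 over the 24 arrays. It was chosen after its values were seen and was not tested. EDN1 was lowest in Aldefluor- DMSO cells of both lines, at 5.90 ± 0.24 in SUM159 and 6.39 ± 0.057 in T47D (SD, n = 3). It was highest in Aldefluor+ ID8 cells, at 6.98 ± 0.075 in SUM159 and 7.21 ± 0.071 in T47D. In SUM159 Aldefluor- cells given ID8 it was 6.81 ± 0.17, above the Aldefluor+ DMSO cells at 6.34 ± 0.11, and those groups did not overlap. The SUM159 Aldefluor- ID8 arrays, at 6.62, 6.96 and 6.85, overlapped the Aldefluor+ ID8 arrays, at 6.94, 6.93 and 7.06. Unlike NPR3, which differed by 0.05, EDN1 was higher with ID8 than with DMSO in SUM159 Aldefluor+ cells, with no overlap.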
